A study of Mus musculus with 6 samples.

Results

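The DNAJ co-chaperones, or J proteins, were read here as the genes of the deposited count table whose symbol begins with Dnaja, Dnajb or Dnajc followed by a digit. Dnajb1 and Dnajb9 were left out. The table held 40 such genes among 18228, of which 4 were Dnaja, 9 Dnajb and 27 Dnajc genes. RNA was sequenced from hypothalamus tissue of 3 aged mice (22 months) and 3 young mice (12 weeks), drawn at random from 5 mice per age after a behavioural experiment on cognitive decline. Mice of both ages had free food and water on a regular light cycle, and were killed under sodium pentobarbital. Strain, sex, litter and batch are not given in the labels. Summed reads of Eif2s3y, Uty, Kdm5d and Ddx3y, all on the Y chromosome, were 3394 to 3617 per library among aged mice against 24 to 32 among young mice, so age and the presence of Y-linked RNA cannot be told apart in any comparison below.

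J proteins hand unfolded clients to HSP70 chaperones and switch on the HSP70 ATPase through a conserved J domain. Class A members resemble bacterial DnaJ throughout, with a zinc-binding region. Class B members keep the glycine- and phenylalanine-rich stretch but lack the zinc-binding region. Class C members share only the J domain and are often tied to one place or client, such as the synaptic vesicle, the endoplasmic reticulum (ER), the mitochondrion or the ribosome. Several class A and B genes are targets of the heat shock factor HSF1, and in neurons J proteins are known for holding aggregation-prone proteins in solution and for clathrin uncoating at synapses.

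The 6 libraries held 17208291 to 18884403 counted reads each, of which the 40 members took 0.298% to 0.316%. All 6 hypothalamic markers (Avp, Oxt, Pomc, Agrp, Hcrt and Nkx2-1) were detected, with sums of 761 to 792 TMM CPM in aged and 758 to 855 TMM CPM in young libraries; Avp was higher and Hcrt lower with age. TMM CPM, written CPM below, are counts scaled to a common library size with trimmed-mean factors, and suit comparisons of a gene between libraries. Markers of several other cell types differed between the ages, in some cases unevenly among libraries. Of 6 astrocyte markers 3 were lower in aged libraries, and their summed level was 1545 to 2275 CPM in aged against 2648 to 2975 CPM in young libraries. Of 6 endothelial markers 3 were lower, with sums of 144 to 171 against 182 to 223 CPM. Of 6 dopamine neuron markers 3 were lower, with sums of 122 to 171 against 164 to 369 CPM. The young sums were 164, 290 and 369 CPM in replicates 1 to 3, so that of replicate 1 lay within the aged range. Of 5 tested cortex and thalamus markers 2 were lower, with sums of 73.5 to 86.8 against 93.1 to 286 CPM. Here too the young libraries differed widely, with Slc17a7 at 11.3, 173 and 58.5 CPM in young replicates 1 to 3. Of 6 microglial markers 1 was lower, with overlapping sums of 251 to 287 against 260 to 266 CPM. Every aged library lay above every young one for 4 of these markers and below for 2. Of 6 neuron, 6 oligodendrocyte and 6 ependymal markers none passed the test, and the ranges of their sums overlapped between ages. No marker was at 0 in all libraries. In bulk tissue fewer cells of a type and less RNA per cell cannot be told apart, and the part of these shifts in the results below was not tested.

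By FPKM, which divides reads by gene length and library total and so allows levels to be compared between genes, the most abundant member was Dnajc5, cysteine string protein alpha of synaptic vesicles. It stood at 85.9 ± 4.89 FPKM in aged and 93.4 ± 1.80 FPKM in young libraries (SD, n = 3 each). Dnaja1, a farnesylated cytosolic partner of HSC70, followed in mean level over the 6 libraries at 64.9 FPKM, and Dnajc6 (auxilin, which recruits HSC70 to clathrin coats) at 64.6 FPKM. Dnajb2 (HSJ1, with ubiquitin-interacting motifs) had a mean of 53.1 FPKM, Dnaja2 (a refolding partner of HSC70) 51.2 FPKM, and Dnajc7 (TPR2, which binds HSP70 and HSP90) 46.1 FPKM. Every library of Dnajc5 lay above every library of Dnaja1, whereas the ranges of each further neighbouring pair overlapped. In young libraries Dnajc6 at 67.3 ± 3.67 FPKM stood above Dnaja1 at 56.8 ± 3.74 FPKM (SD, n = 3 each), while in aged libraries Dnaja1 was above it at 73.0 ± 4.80 against 62.0 ± 3.05 FPKM. At the low end, Dnajb13, an axonemal protein of motile cilia, had a mean of 0.977 FPKM. Dnajc22 had 2 to 13 reads per library and Dnajc5b 0 or 1 read, and these were not tested. The 27 Dnajc genes together made up 64.2% of the members' summed FPKM, the Dnaja genes 18.5% and the Dnajb genes 17.3%.

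**Figure D1:**
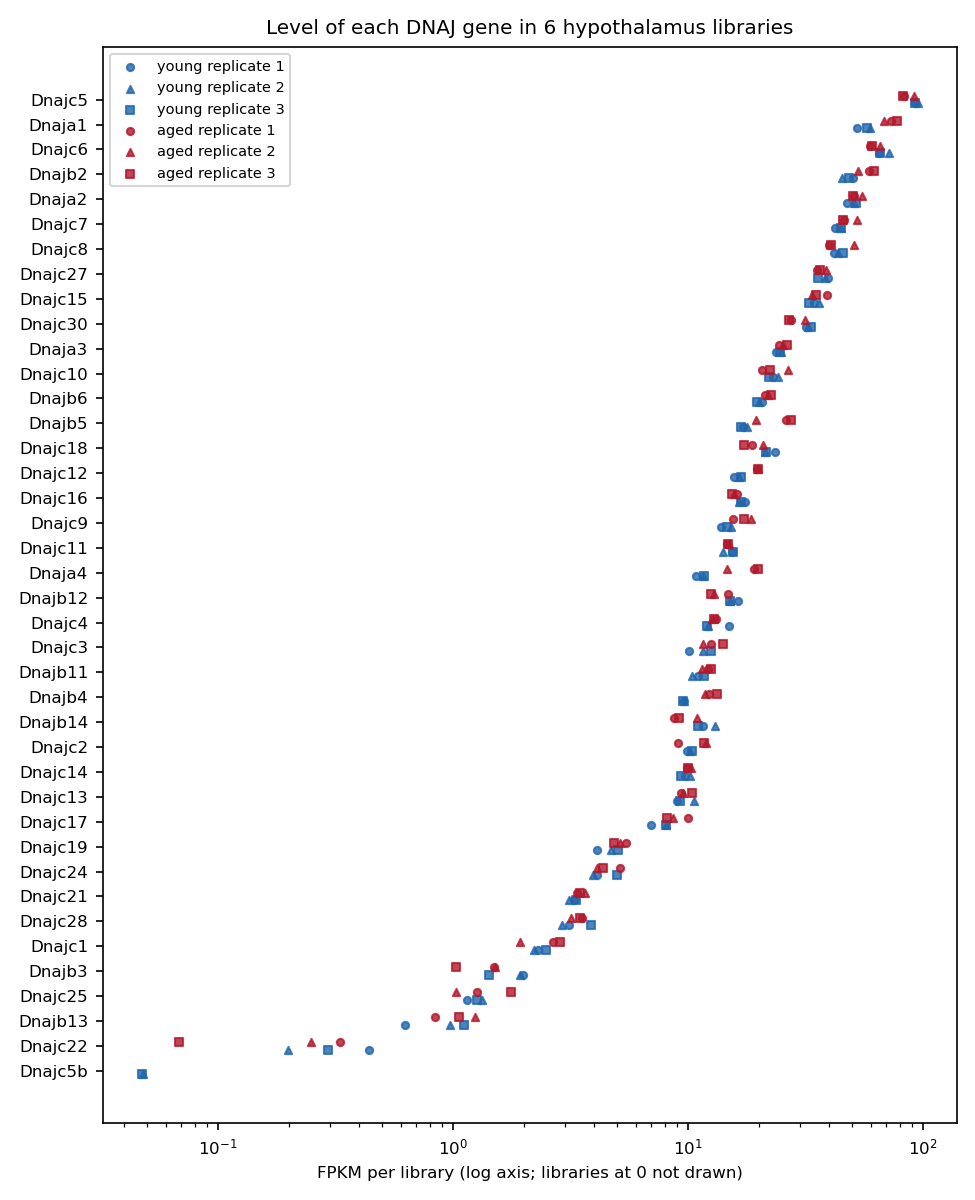
FPKM of each of the 40 DNAJ genes in each library on a log axis, with aged libraries in red, young in blue and the marker shape giving the replicate. Levels span from Dnajc5 at the top to Dnajc5b, which had no read in the aged libraries, and most genes show red and blue points side by side.

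As families, Dnaja and Dnajb transcripts had higher sums in every aged library than in any young one, and Dnajc transcripts did not. The 4 Dnaja genes summed to 163 to 175 FPKM in the aged libraries and to 135 to 147 FPKM in the young, without overlap. Mean levels differed for Dnaja1 (73.0 in aged against 56.8 FPKM in young) and Dnaja4 (17.8 against 11.4 FPKM). Dnaja2 and Dnaja3 had log2 fold changes of only 0.02 and 0.03, so the sum does not describe each gene. The 9 Dnajb genes summed to 144 to 162 FPKM in aged and 134 to 139 FPKM in young libraries, also without overlap. Of these, 6 had a positive log2 fold change and 3 a negative one (Dnajb3, Dnajb12 and Dnajb14). The Dnajb sum does not describe each gene either. The 27 Dnajc genes summed to 522 to 565 FPKM in aged and 535 to 551 FPKM in young libraries, so the ranges overlapped. In CPM, which is not divided by length and carries the trimmed-mean scaling, the Dnajc sums were 1956, 2085 and 1969 in aged and 2098, 2167 and 2060 in young replicates, with a lower mean in aged libraries and overlapping ranges. The Dnaja and Dnajb sums did not overlap in CPM either, but the Dnajb sums nearly met, at 502 in aged replicate 2 and 500 in young replicate 1. Hspa8, the constitutive cytosolic HSP70 (HSC70) that many of these proteins serve, stood at 1099 ± 106 FPKM in aged and 915 ± 34.5 FPKM in young libraries (SD, n = 3 each), above the sum of all 40 members, which was 859 ± 12.8 and 821 ± 12.0 FPKM. The sum of all members did not overlap between ages in FPKM but did in CPM, at 3074 ± 32.2 in aged and 3056 ± 74.0 in young libraries.

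The age comparison called 4 of the 38 tested members, and each was a cytosolic Dnaja or Dnajb gene that was higher in aged hypothalamus. These were Dnaja1, Dnaja4, Dnajb4 and Dnajb5, with rises of 1.26- to 1.54-fold. They were 4 of the 5 tested class A and B members listed as cytosolic partners of HSC70, the fifth being Dnaja2. Dnajb2 and Dnajb6, which also act in the cytosol, were listed apart as neuronal and disaggregase members. These classes were drawn up with earlier results of these data known, so the split between them is a description and not a test. None of the other 33 tested members was called. By edgeR's quasi-likelihood test with Benjamini-Hochberg adjustment over 14702 genes, 10.5% of tested members were higher, against 3.22% of all genes (474); in either direction the background was 6.86%. No member was called lower, against 3.64% of all genes (535). With scaling by library total alone these backgrounds were 627 higher and 446 lower genes. At an unadjusted p under 0.05, 7 members were higher and 7 lower, together 36.8% of those tested beside 26.2% of all genes, and DESeq2 called 1 member lower. The members' median log2 fold change was 0.03 and that of all genes 0.00 (-0.0035 before rounding).

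**Figure D2:**
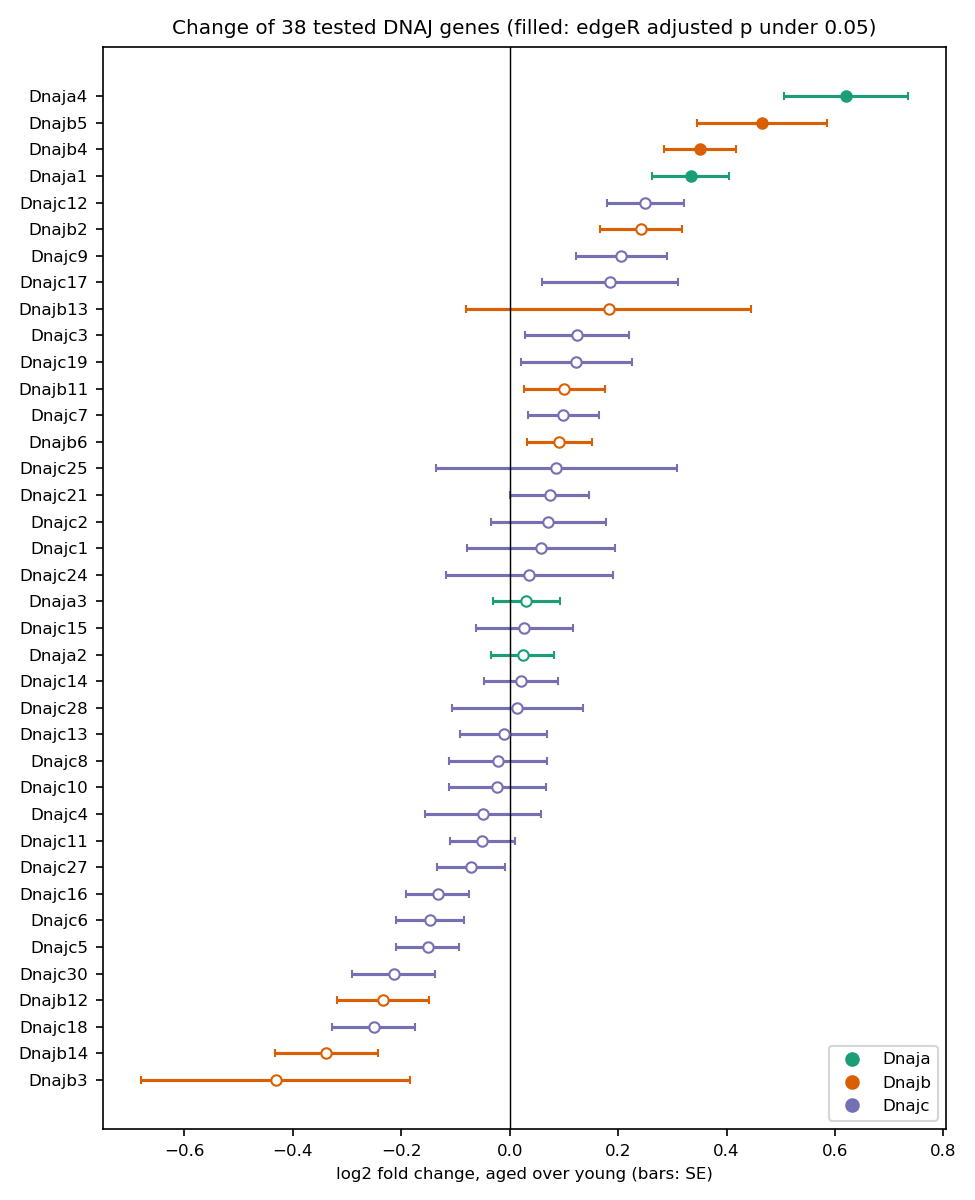
Log2 fold change (aged over young) with its SE for the 38 tested members, coloured by family, filled where edgeR's adjusted p was under 0.05. The 4 filled points are Dnaja4, Dnajb5, Dnajb4 and Dnaja1 at the top, and every Dnajc point is open.

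Dnaja4, a cytosolic J protein whose gene is inducible by heat shock, changed most. It stood at 59.8, 44.9 and 61.7 CPM in aged replicates 1, 2 and 3, and at 34.6, 37.1 and 36.4 CPM in the young replicates. All aged libraries lay above all young ones, and aged replicate 2 was nearest to them. The log2 fold change was 0.62 ± 0.11 SE (edgeR adjusted p = 0.0176), a 1.54-fold rise with a 95% interval of 28.8% to 83.4%.

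Dnajb5, a close relative of DNAJB1, stood at 105, 76.8 and 110 CPM in aged replicates 1 to 3 and at 70.1, 73.6 and 67.5 CPM in young replicates 1 to 3. Aged replicates 1 and 3 were well above the young libraries, and aged replicate 2 exceeded the highest young library by a few CPM. The log2 fold change was 0.47 ± 0.12 SE (edgeR adjusted p = 0.0486), close to the threshold. The call was lost in 8 of 17 alternatives. Among these were limma-voom (adjusted p = 0.0606) and limma-trend on log2(FPKM + 1) (adjusted p = 0.0542) and on log2(FPKM + 0.1). Without aged replicate 2 the log2 fold change was 0.62 (edgeR adjusted p = 0.00107). Leaving out any other single library lost the call, with edgeR adjusted p of 0.0803 to 0.167.

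Dnajb4, a further DNAJB1-like protein, stood at 75.8, 71.9 and 81.4 CPM in the aged and at 60.4, 60.6 and 58.6 CPM in the young replicates. The young libraries were within 2 CPM of each other. The log2 fold change was 0.35 ± 0.07 SE (edgeR adjusted p = 0.0186).

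Dnaja1 was the called member with the highest level. It stood at 263, 241 and 278 CPM in the aged and 193, 219 and 209 CPM in the young replicates, again without overlap. The log2 fold change was 0.33 ± 0.07 SE (edgeR adjusted p = 0.0279), a change of 26.0%. Dnaja2, the third cytosolic class A member, stood at 149, 158 and 148 CPM in the aged and 142, 153 and 152 CPM in the young replicates. Its log2 fold change was 0.02 ± 0.06 SE with a 95% interval of -0.11 to 0.16, below the lower interval bound of Dnaja1 (0.17), and the groups overlapped.

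**Figure D3:**
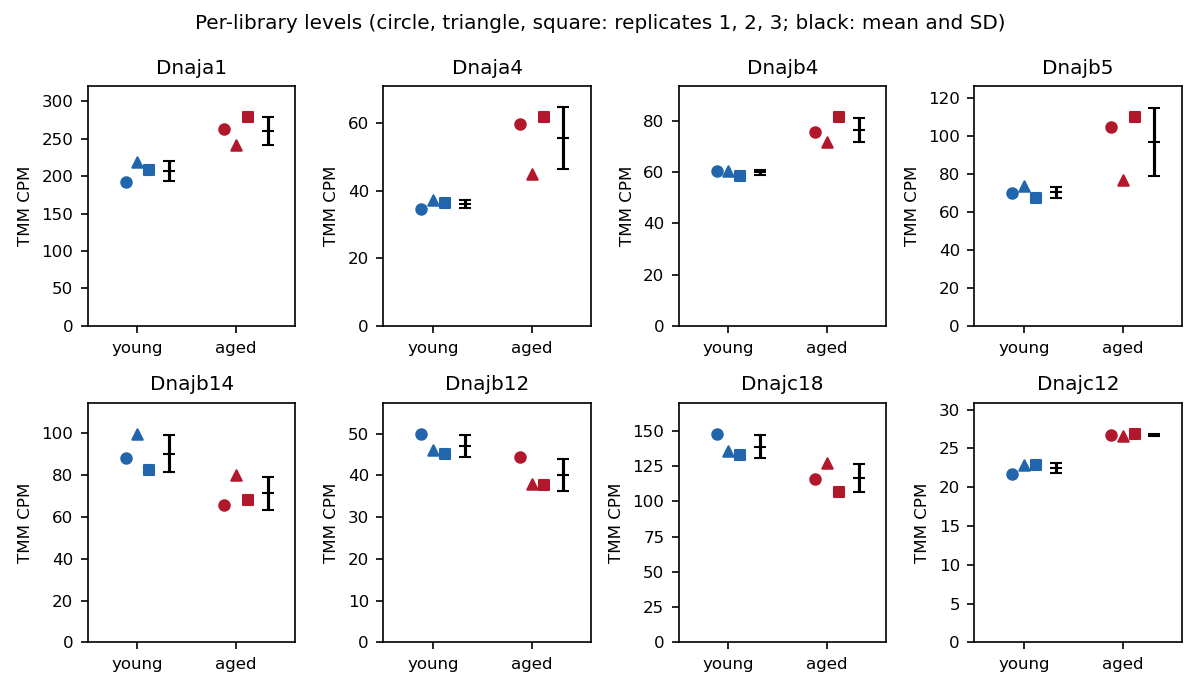
TMM CPM per library for 8 members, young in blue and aged in red, with the replicate as marker shape and black bars for mean and SD (n = 3); axes begin at 0. The upper row holds the 4 called genes, whose aged points all lie above the young ones, and the lower row holds Dnajb14, Dnajb12 and Dnajc18, whose aged points all lie below, and Dnajc12, whose aged points lie above.

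Each of these 4 calls depended on which libraries entered. Without aged replicate 2 all 4 passed again, with log2 fold changes of 0.40 (Dnaja1), 0.76 (Dnaja4), 0.40 (Dnajb4) and 0.62 (Dnajb5). Without young replicate 2, Dnaja1, Dnaja4 and Dnajb4 passed. Without aged replicate 1 or 3, or young replicate 1 or 3, no member passed, although every one of the 4 kept its direction; adjusted p for Dnaja4 then ran from 0.0531 to 0.0723. The count over all genes fell too, from 474 higher genes to between 95 and 181 in these 4 fits.

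**Figure D4:**
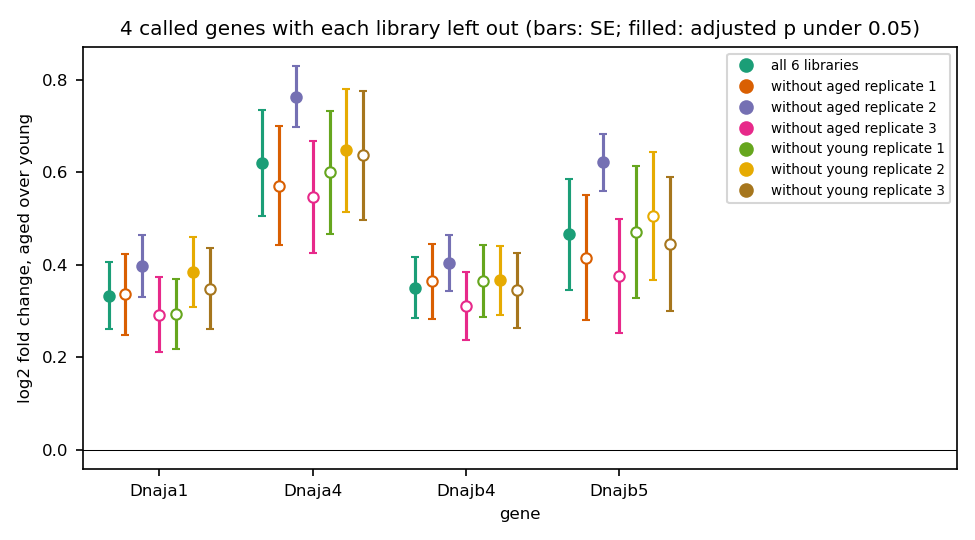
Log2 fold change with its SE for the 4 called genes with all 6 libraries and with each library left out in turn, filled where the adjusted p was under 0.05. Every value is above 0, and the highest for each gene is the one without aged replicate 2.

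In all 4 called genes, the aged libraries ran in the order replicate 2, replicate 1, replicate 3 from low to high, an order that 6 of the other 34 tested members (17.6%) and 18.3% of all tested genes had. Among partner genes the order held for 5 of 11 tested in the HSP70 family, 4 of 14 exchange factors and 7 of 14 HSP90 genes and co-chaperones. Hspa1a and Hspa1b, the stress-inducible HSP70 genes, were among those that showed it, while Hspa9, the mitochondrial HSP70, did not, at 221, 242 and 230 CPM in aged replicates 1 to 3. Over all genes with enough reads, aged replicate 2 differed from replicates 1 and 3 by a chi-square over degrees of freedom of 12.1 and 10.2. Aged replicates 1 and 3 differed from each other by 4.04. The share with this order among all genes called higher was not computed. The order was not particular to chaperone genes. Of the astrocyte markers, none of which had a positive change with age, Aqp4, Gja1, Slc1a3 and Aldh1l1 also had it. Aqp4 stood at 103, 81.1 and 113 CPM in aged replicates 1 to 3. Sox9 and Slc1a2 did not have the order. Hspa1b stood at 88.4, 27.5 and 159 CPM in aged replicates 1 to 3 and at 4.78 to 7.18 CPM in young libraries. Hspa1a and Hspa1b are near-identical, so reads could have been divided between them. Dnajb1, the inducible J protein that the gene set leaves out, stood at 177, 124 and 202 CPM in aged and 66.8, 86.6 and 65.4 CPM in young replicates (log2 fold change 1.20 ± 0.17 SE, edgeR adjusted p = 0.00655). Bag3, which releases HSP70 clients towards autophagy, stood at 34.1, 21.2 and 45.8 CPM in aged and 13.4 to 16.1 CPM in young libraries. Hspa1a, Hspa1b, Dnajb1 and Bag3 were chosen because earlier results of these data were known. The estimated changes of the called members were smaller than that of Dnajb1, whose 95% interval began above the log2 fold changes of all 4. The interval of Dnaja4 reached 0.88, past the 0.82 at which that of Dnajb1 began. Differences between these genes were not tested.

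**Figure D5:**
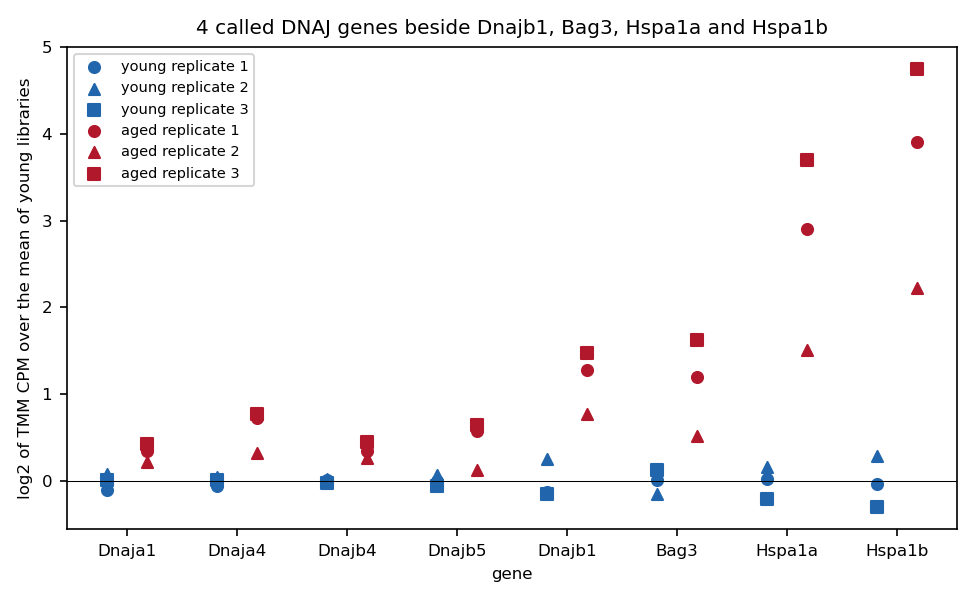
Log2 of TMM CPM over the mean of the young libraries, for the 4 called DNAJ genes and for Dnajb1, Bag3, Hspa1a and Hspa1b, one point per library. In every gene the aged triangle (replicate 2) is the lowest and the aged square (replicate 3) the highest of the aged points.

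The promoters of these genes were read for heat shock elements, since HSF1 binds inverted GAA units. The RefSeq table (GRCm38.p6, another build than the GRCm39 of the submitters' notes) held 44 windows for 32 of the 40 members, each the 250 bases before an annotated start. The letters searched on either strand were GAANNTTC or TTCNNGAA for 2 units, and GAANNTTCNNGAA or TTCNNGAANNTTC for 3 units, which contain the 2-unit letters. The 2-unit letters lay in windows of 6 members, Dnaja1, Dnaja4, Dnajb4, Dnajb6, Dnajc10 and Dnajc27, and in 14.5% of 27025 genes with a window. The 3-unit letters lay in a window of Dnajb6 alone among members, and in 0.514% of genes. Genes can have several windows, and by window the 2-unit letters lay in 7 of the 44 of members and in 12.8% of all 32851. They lay in 1 of 3 windows of Dnaja1, 1 of 2 of Dnaja4 and 1 of 2 of Dnajb4. None of the 3 windows of Dnajb5 held the 2-unit letters. A match describes letters only and does not show a bound site. The 30-base stretches around the matches of the called genes, and of Dnajb6 for comparison, are shown 5′ to 3′ on the gene's strand with the matching letters in capitals.
Dnaja1 (chr4:40722333-40722362, plus strand): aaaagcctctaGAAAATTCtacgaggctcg
Dnaja4 (chr9:54699458-54699487, plus strand): ggaacctccgcGAACGTTCtgggcctatgt
Dnaja4 (chr9:54699496-54699525, plus strand): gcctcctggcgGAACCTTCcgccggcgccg
Dnajb4 (chr3:152193841-152193870, minus strand): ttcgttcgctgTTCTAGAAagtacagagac
Dnajb6 (chr5:29735844-29735873, plus strand): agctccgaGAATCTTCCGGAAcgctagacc

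GENCODE exons, among them exons of the gene itself, overlapped the windows that held the Dnaja1, Dnaja4 and Dnajb6 matches. The Dnajb4 match began 14 bases before one of its 2 annotated starts, and no GENCODE exon overlapped that window. It is printed whole (chr3:152193846-152194095, minus strand) with the match in capitals.
Dnajb4: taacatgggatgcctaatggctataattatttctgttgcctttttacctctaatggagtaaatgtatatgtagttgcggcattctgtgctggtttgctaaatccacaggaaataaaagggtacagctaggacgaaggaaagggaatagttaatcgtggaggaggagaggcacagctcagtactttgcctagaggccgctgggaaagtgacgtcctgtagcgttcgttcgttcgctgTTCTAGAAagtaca

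Dnajb6, known as a suppressor of polyglutamine and amyloid aggregation, was the member with the 3-unit letters in a window. It stood at 74.1, 75.0 and 77.9 CPM in aged and 73.4, 71.2 and 68.4 CPM in young replicates. The groups did not overlap, but the change was small, at 0.09 ± 0.06 SE, and did not pass (edgeR adjusted p = 0.366; 95% interval -2.91% to 17.0%). Dnajb2 stood at 142, 125 and 148 CPM in aged and 123, 111 and 116 CPM in young replicates, where the lowest aged library barely exceeded the highest young one. Its log2 fold change of 0.24 ± 0.08 SE did not pass (edgeR adjusted p = 0.0832; adjusted p = 0.0479 with the replicate number as a block and 0.0181 without aged replicate 2). Of the remaining Dnajb genes, the low-level Dnajb3 (18 to 35 reads per library) had a log2 fold change of -0.43 ± 0.25 SE and Dnajb13 one of 0.18 ± 0.26 SE, with overlapping groups in each.

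None of the 9 tested members of the endoplasmic reticulum passed in edgeR. At an unadjusted p under 0.05, 4 were lower in aged libraries and none higher, beside 2011 lower and 1848 higher of all 14702 genes. DESeq2 called 1, Dnajb14. In these 4 every aged library lay below every young one, which their low p already favours. Over all 9 members the share with that order was 44.4%, beside 16.2% of all genes. DNAJB12, DNAJB14 and DNAJC18 are related proteins anchored in the ER membrane, and DNAJB12 and DNAJB14 serve the disposal of misfolded membrane proteins. Dnajb14 stood at 65.5, 80.1 and 68.0 CPM in aged and 88.1, 99.6 and 82.5 CPM in young replicates. Dnajc18 stood at 116, 127 and 106 CPM in aged and 148, 135 and 133 CPM in young replicates. Dnajb12 stood at 44.5, 38.1 and 37.6 CPM in aged and 50.0, 46.2 and 45.1 CPM in young replicates. In all 3 genes every aged library lay below every young one. The log2 fold changes were -0.34 ± 0.09, -0.25 ± 0.08 and -0.23 ± 0.09 SE, with edgeR adjusted p of 0.0614, 0.0773 and 0.120. Dnajb14 passed without aged replicate 2, at -0.42 (adjusted p = 0.0193), and with the replicate number as a block (adjusted p = 0.0194). Dnajc18 passed without aged replicate 2, at -0.31 (adjusted p = 0.0299). Dnajc16, a membrane protein with a thioredoxin-like domain, also had all aged libraries below the young ones, at 89.7 to 94.6 against 98.4 to 104 CPM (-0.13 ± 0.06 SE, edgeR adjusted p = 0.183). The other ER membrane members, Dnajc1 (ERdj1) and Dnajc14 (DRIP78), had overlapping groups.

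The lumenal ER members that work with the HSP70 BiP did not show that order. Dnajb11 (ERdj3) had a log2 fold change of 0.10 ± 0.07 SE, Dnajc3 (P58IPK) 0.12 ± 0.10 and Dnajc10 (ERdj5, a disulfide reductase) -0.02 ± 0.09, and the groups overlapped in each. The letters of the canonical ER stress element (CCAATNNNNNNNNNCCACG on either strand), found in 0.130% of genes with a window, lay in the window of Dnajc3 alone among members. Dnajb9 (ERdj4), which the gene set leaves out, stood at 50.5 to 51.0 CPM in aged and 50.1 to 52.2 CPM in young libraries. Hspa5, which encodes BiP itself, was higher in aged libraries, at 439, 361 and 469 CPM against 295, 312 and 322 CPM (log2 fold change 0.45 ± 0.09 SE, edgeR adjusted p = 0.0227).

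Of the class C members that act at synapses, Dnajc5 stood at 394, 424 and 388 CPM in aged and 443, 460 and 435 CPM in young replicates. Dnajc6 stood at 337, 363 and 342 CPM in aged and 372, 412 and 369 CPM in young replicates. For each gene all aged libraries lay below all young ones, with log2 fold changes of -0.15 ± 0.06 and -0.15 ± 0.06 SE. Neither passed (edgeR adjusted p = 0.136 and 0.176), and the 95% intervals ran from -17.7% to -1.44% and from -18.1% to -0.352%. The summed neuron markers were 4098 to 4376 CPM in aged and 4223 to 4790 CPM in young libraries.

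Dnajc12, a co-chaperone of aromatic amino acid hydroxylases such as tyrosine hydroxylase, stood at 26.8, 26.6 and 26.9 CPM in aged and 21.7, 22.9 and 22.8 CPM in young replicates. All aged libraries lay above the young ones. The log2 fold change was 0.25 ± 0.07 SE and did not pass (edgeR adjusted p = 0.0626), while limma-trend on log2(FPKM + 1) and scaling by library total alone called it (adjusted p = 0.0298 and 0.0477), and DESeq2 did not (adjusted p = 0.135). Th, which encodes tyrosine hydroxylase, stood at 46.3 to 54.6 CPM in aged and 51.0 to 92.9 CPM in young libraries (log2 fold change -0.51, edgeR adjusted p = 0.106). Slc6a3, the dopamine transporter gene, fell, at 4.27 to 19.2 against 22.6 to 113 CPM (edgeR adjusted p = 0.0301).

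Of the mitochondrial members, 0 of 6 passed in edgeR or DESeq2, and 1 had an unadjusted p under 0.05. That gene was Dnajc30, an inner membrane protein linked to ATP synthase, at 31.7, 35.8 and 31.0 CPM in aged and 37.5, 38.2 and 38.7 CPM in young replicates. Its aged libraries were all lower, with a log2 fold change of -0.21 ± 0.08 SE (edgeR adjusted p = 0.116; adjusted p = 0.0358 with the gene length trend removed and 0.0439 without aged replicate 2). The import motor members Dnajc15 and Dnajc19 had log2 fold changes of 0.03 ± 0.09 and 0.12 ± 0.10 SE. Dnaja3 (TID1) stood at 64.8, 65.7 and 69.6 CPM in aged and 63.6, 67.0 and 65.4 CPM in young replicates. Its log2 fold change was 0.03 ± 0.06 SE, with a 95% interval of -7.12% to 12.3%.

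Members tied to ribosomes and RNA did not pass either, with 0 of 4 in edgeR, in DESeq2 and at an unadjusted p under 0.05. Dnajc2, the zuotin homologue on ribosomes, had a log2 fold change of 0.07 ± 0.11 SE, and Dnajc21, a ribosome biogenesis factor, 0.07 ± 0.07 SE. Dnajc8, associated with the spliceosome, and Dnajc17, a nuclear protein with an RNA recognition motif, had -0.02 ± 0.09 and 0.19 ± 0.13 SE. Dnajc9, a histone chaperone, stood at 25.4, 29.7 and 28.2 CPM in aged and 23.0, 25.4 and 23.9 CPM in young replicates, with aged replicate 1 just above the highest young library (log2 fold change 0.21 ± 0.08 SE, edgeR adjusted p = 0.159).

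Of the 34 tested members that did not pass, 18 had an absolute log2 fold change under 0.1 and 30 one under 0.25, and the median SE was 0.08. Dnajc7 stood at 155, 173 and 153 CPM in aged and 145, 154 and 151 CPM in young replicates (0.10 ± 0.07 SE). Dnajc27 (RBJ, a Rab-like GTPase) had -0.07 ± 0.06 SE and Dnajc13 (RME-8, an endosomal protein) -0.01 ± 0.08 SE. Dnajc1, Dnajc4, Dnajc11, Dnajc14, Dnajc24, Dnajc25 and Dnajc28 had overlapping groups and log2 fold changes from -0.05 to 0.09. Their precision differed, with 95% intervals from -8.77% to 12.8% for Dnajc14 and from -24.8% to 49.8% for Dnajc25. In all, 9 tested members had every aged library above every young one and 7 had every aged library below (23.7% and 18.4%), beside 15.5% and 16.2% of all tested genes.

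Among partner genes, the HSP70 family had 3 higher and 1 lower of 11 tested. Hspa1b, Hspa1a and Hspa5 rose, and Hspa12a, a distant family member, fell by 0.29 on the log2 scale (edgeR adjusted p = 0.0228). Hspa8 did not pass, at 2357, 2029 and 2488 CPM in aged and 1873, 2018 and 1945 CPM in young replicates (0.24 ± 0.08 SE, edgeR adjusted p = 0.0952). Of 14 nucleotide exchange factors, which let HSP70 release its client, Bag3 rose (1.18 ± 0.23 SE, edgeR adjusted p = 0.0210) and 13 did not pass. Of 14 HSP90 genes and co-chaperones, Fkbp5 (1.01 ± 0.13) and Fkbp4 (0.43 ± 0.09) rose (edgeR adjusted p = 0.00468 and 0.0270), and 12 did not pass. Of 4 tested heat shock factor genes and regulators none passed in edgeR and DESeq2 called 1. An unadjusted p under 0.05, which 26.2% of all genes had, was found for Hsf4 alone. Hsf4 had a log2 fold change of 0.33 ± 0.09 SE (edgeR adjusted p = 0.0516), with every aged library above every young one. Hsf1 overlapped, at 60.7 to 79.4 CPM in aged and 52.9 to 69.2 CPM in young libraries (edgeR adjusted p = 0.346). Of J-domain genes outside the 40, Dnajb1 rose, and Dnajb9, Gak, Hscb and Sec63 did not pass. With single libraries left out, the count of higher genes ran from 2 to 6 in the HSP70 family, 0 to 3 among exchange factors and 1 to 5 among HSP90 genes. The median log2 fold change was 0.24 for the HSP70 family, 0.06 for exchange factors and 0.14 for HSP90 genes.

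Some members share exons with other genes in the GENCODE annotation of GRCm38, and the strand setting of the counting is not given in the sources used here. Dnaja1 overlaps Smu1, which had a log2 fold change of 0.14 ± 0.07 SE (edgeR adjusted p = 0.244). Dnaja4 overlaps Wdr61, at 0.16 ± 0.08 SE (adjusted p = 0.237 by edgeR). Dnajc30 overlaps Bud23, whose change had the opposite sign, at 0.33 ± 0.11 SE (adjusted p = 0.0947 by edgeR). Dnaja3, Dnajb13, Dnajc1, Dnajc7, Dnajc14, Dnajc17, Dnajc19 and Dnajc24 also share exons with other genes of the count table. For Dnajc7 these are Cnp and Nkiras2. Whether reads were shared with these genes was not tested, so the levels of such members are uncertain to that extent. Dnajb4 and Dnajb5 overlap no annotated gene. RefSeq also lists pseudogenes of Dnaja1, Dnajb6 and Dnajc19, so the levels of these 3 genes are uncertain to the extent that reads were shared with them.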

How the data were processed

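Hypothalamus RNA from 6 mice (3 per age, 1 library each) was measured by sequencing of libraries made with a stranded mRNA kit, per the labels' protocols. The authors deposited whole-number read counts per gene and, in a second table, FPKM. The submitters' processing notes list the build GRCm39 and, with no role, version or setting, Trimmomatic, HISAT2, Cufflinks, HTSeq and DESeq. The deposited FPKM equalled counts over gene length and library total for 18228 of 18228 genes (relative tolerance 1e-06), which also gave gene length.

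Counts were fitted with edgeR 4.0.16 (R 4.3.3; filterByExpr with minimum count 10 and minimum total 15; TMM factors; quasi-likelihood test, aged against young, no covariate), which left 14702 genes and 38 of the 40 members. A gene was called at a Benjamini-Hochberg adjusted p under 0.05 over all 14702. The SE is that implied by the test, and the 95% intervals follow from it. Mice were the replicates, and libraries of an age differed beyond counting noise (chi-square over degrees of freedom of 4.04 to 12.1). Members, partner lists, role classes and motifs were chosen with earlier results of these data known. Each called member, the 12 largest changes without overlap and the highest levels per family were described by library, and the other members by change or range. Alternatives were other scalings and filters, DESeq2 1.42.0, limma 3.58.1 (voom, and trend on log2(FPKM + 1) or log2(FPKM + 0.1)), the replicate number as a block, removal of a per-library gene length trend, and each library left out. The fitting code was also run on counts simulated from the fit's own means and dispersions, which does not test how well the fit describes these libraries. Protein sequences were not used here. A further J-domain gene outside the 40 is not reported here.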

Additional observations from a re-analysis of the deposited data

How the results depend on the processing

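All 17 alternatives were computed for the 38 tested members, and 612 of 646 values kept the direction of the main analysis, those of Dnaja1, Dnaja4, Dnajb4 and Dnajb5 among them. The count of members called higher (4) was 3 to 5 under the 11 alternatives that used all libraries and 0 to 5 when single libraries were left out. The count called lower (0) was 1 in DESeq2, 1 with the replicate block, 1 with the gene length trend removed and 0 to 3 with single libraries left out. Over all genes, 474 higher became 95 to 901 and 535 lower became 55 to 732 with single libraries left out; the lower genes were 293 and 303 with limma-trend on FPKM (pseudocounts 1 and 0.1), and 348 with the length trend removed. The cause was not tested. The replicate number gave no pairing: correlations of same-numbered deviations were 0.094, 0.038 and -0.17, and not every library matched its own number best. With the replicate block, 5 members were higher and 523 genes higher and 667 lower overall.

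The 34 values with the opposite direction came from members with overlapping groups, none of them past the threshold. With the length trend removed they were -0.00067 (Dnaja2), -0.0019 (Dnaja3), -0.12 (Dnajc15), -0.051 (Dnajc24) and 0.061 (Dnajc13). With scaling by library total they were 0.0082 (Dnajc10), 0.019 (Dnajc13) and 0.0079 (Dnajc8), and with limma-trend at pseudocounts 1 and 0.1 they were 0.00082 and 0.00059 (Dnajc10) and 0.019 and 0.021 (Dnajc13). With single libraries left out the log2 fold changes ran from -0.00091 to 0.050 (Dnaja2), -0.0085 to 0.36 (Dnajb13), -0.044 to 0.23 (Dnajc1), -0.11 to 0.057 (Dnajc10), -0.052 to 0.076 (Dnajc13), -0.0096 to 0.065 (Dnajc14), -0.036 to 0.090 (Dnajc15), -0.063 to 0.15 (Dnajc24), -0.14 to 0.27 (Dnajc25), -0.058 to 0.14 (Dnajc28), -0.10 to 0.070 (Dnajc4) and -0.12 to 0.044 (Dnajc8).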
